A study of Mus musculus with 2 samples.

Results

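Binding of EP300, a histone acetyltransferase and coactivator found at active enhancers and promoters, was examined at 8 genes that encode the NFE2-related, small MAF and BACH transcription factors. The genes were Nfe2, Nfe2l1, Nfe2l2, Mafk, Mafg, Maff, Bach1 and Bach2. Their peaks were the entries of the authors' optimal list whose summit lay within 50 kb of any annotated transcription start site (TSS) of one of the genes. This gave 29 peaks, of 17055 in the optimal list and of 17043 on the autosomes and chromosome X. No peak lay near more than 1 of the 8 genes.

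The material was liver from B6NCrl mouse embryos of mixed sex at 14.5 days, pulverized and pooled over several dissections. Chromatin immunoprecipitation with an EP300 antibody and sequencing (ChIP-seq) gave 2 libraries of 1 group, with no second tissue, age or genotype. Both libraries carry the same biosample and donor labels, so their spread may be technical. The labels name no allele, transgene or treatment. The optimal list keeps peaks that pass the irreproducible discovery rate (IDR) filter of the authors. Read totals are not given, so the depth behind each value is unknown. Peak signal is the authors' value and ranks peaks within a list. With 1 group, no test between conditions was possible, and shares are given beside those over all peaks or genes as a description.

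NFE2, NRF1 (the product of Nfe2l1) and NRF2 (the product of Nfe2l2) are basic leucine zipper proteins of the cap'n'collar (CNC) family. They bind DNA as dimers with a small MAF protein, MAFK, MAFG or MAFF, which contribute DNA binding but no activation domain. BACH1 and BACH2 pair with the same small MAF proteins and mostly repress; heme binds BACH1 and releases it from DNA. All of these dimers read Maf recognition elements, whose centre resembles an AP-1 site with an added arm. In erythroid cells NFE2 and BACH1 act at globin and heme-related genes, and NRF1 and NRF2 are known for proteasome and antioxidant genes.

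The liver at this age holds erythroid precursors and hepatocytes together, and the marker genes had EP300 peaks to different degrees. All 8 erythroid markers had an optimal peak within 50 kb of a TSS, with a median strongest signal of 283. Of the 8 hepatocyte markers 6 did, with a median of 21.6. Counts were 4 of 6 megakaryocyte markers, with a median of 193, 3 of 6 macrophage markers, with 33.1, and 4 of 6 lymphoid markers, with 108. Over all 21755 protein-coding genes 53.7% had such a peak, and the median over those genes was 73.5. In this bulk tissue, more cells with a bound site and more binding per cell cannot be told apart.

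The sequences around 7 summits carry the motifs on which the comparisons below turn. Peaks are numbered along the chromosome within each gene's window. Capitals mark GATA motifs (AGATAA or AGATAG, and also TGATAA or TGATAG) and the NFE2 form of the core (TGC followed by TGANTCA), each on either strand. With C or G at the open base, the NFE2 form holds the shorter core that NFE2 and AP-1 dimers share (TGACTCA or TGAGTCA). Every core match under the 29 peaks was of the NFE2 form. The first 3 sequences are shown for the NFE2 form, at Bach1 and at Mafg, and the other 4 for the GATA motifs under peaks in the top 25% of optimal signals. All are GRCm38 (mm10) reference sequence, cut to the 201 bases searched. Those at Mafg and Mafk overlap an untranslated region and are cut to 30 bases.
Bach1 peak 2, chr16:87700013-87700213, plus strand: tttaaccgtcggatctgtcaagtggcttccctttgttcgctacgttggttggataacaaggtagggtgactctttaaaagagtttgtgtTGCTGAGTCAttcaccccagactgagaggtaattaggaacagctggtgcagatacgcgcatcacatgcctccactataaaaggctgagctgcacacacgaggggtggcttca
Bach1 peak 7, chr16:87713079-87713279, plus strand: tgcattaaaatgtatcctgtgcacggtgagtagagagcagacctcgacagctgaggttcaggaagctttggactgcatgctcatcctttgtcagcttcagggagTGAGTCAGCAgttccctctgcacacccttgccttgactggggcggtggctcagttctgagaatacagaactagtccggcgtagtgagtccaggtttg
Mafg peak 2, chr11:120630197-120630226, plus strand: tggcgagtcaTGCTGACTCAgcggatcgcc
Mafk peak 3, chr5:139804371-139804400, plus strand: gtagagcCTATCTTATCAgcccagagggct
Bach1 peak 4, chr16:87705968-87706168, plus strand: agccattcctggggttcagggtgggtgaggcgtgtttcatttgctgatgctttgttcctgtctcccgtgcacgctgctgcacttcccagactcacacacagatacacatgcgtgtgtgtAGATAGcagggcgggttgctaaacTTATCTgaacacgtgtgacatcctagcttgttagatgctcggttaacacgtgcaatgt
Bach1 peak 5, chr16:87706395-87706595, plus strand: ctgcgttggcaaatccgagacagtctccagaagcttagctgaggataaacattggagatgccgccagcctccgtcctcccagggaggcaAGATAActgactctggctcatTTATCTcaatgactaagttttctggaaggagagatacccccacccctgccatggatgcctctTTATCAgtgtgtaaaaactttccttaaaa
Bach2 peak 1, chr4:32204959-32205159, plus strand: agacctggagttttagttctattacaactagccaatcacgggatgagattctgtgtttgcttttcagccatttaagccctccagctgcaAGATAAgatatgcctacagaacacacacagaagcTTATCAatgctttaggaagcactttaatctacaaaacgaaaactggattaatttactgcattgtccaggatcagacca

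All 8 genes had at least 1 optimal peak within 50 kb, as did 53.7% of protein-coding genes. Within 20 kb 7 of the 8 had one, against 38.6% of genes. Within 5 kb 5 did, namely Nfe2l1, Nfe2l2, Mafg, Maff and Bach1 (23.5% of genes), and the same 5 had one within 1 kb (15.5% of genes). Bach1 had 7 peaks, a number reached or passed by 5.88% of genes. Nfe2l2, Mafk and Mafg had 5 each, and 12.7% of genes had at least 5. The conservative list gave 3 at Nfe2l2, 3 at Mafk and 2 at Mafg, and replicate 2 alone gave 3 at Nfe2l2. Maff had 3, Bach2 had 2 (4 in the conservative list), and Nfe2 and Nfe2l1 had 1 each. The 2 Bach2 peaks of the conservative list alone lay at the Casp8ap2 promoter, with pooled signals of 16.6 and 5.88. The genes therefore ranged from below the median of 2 peaks among the 11680 genes with a peak to well above it.

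**Figure D1:**
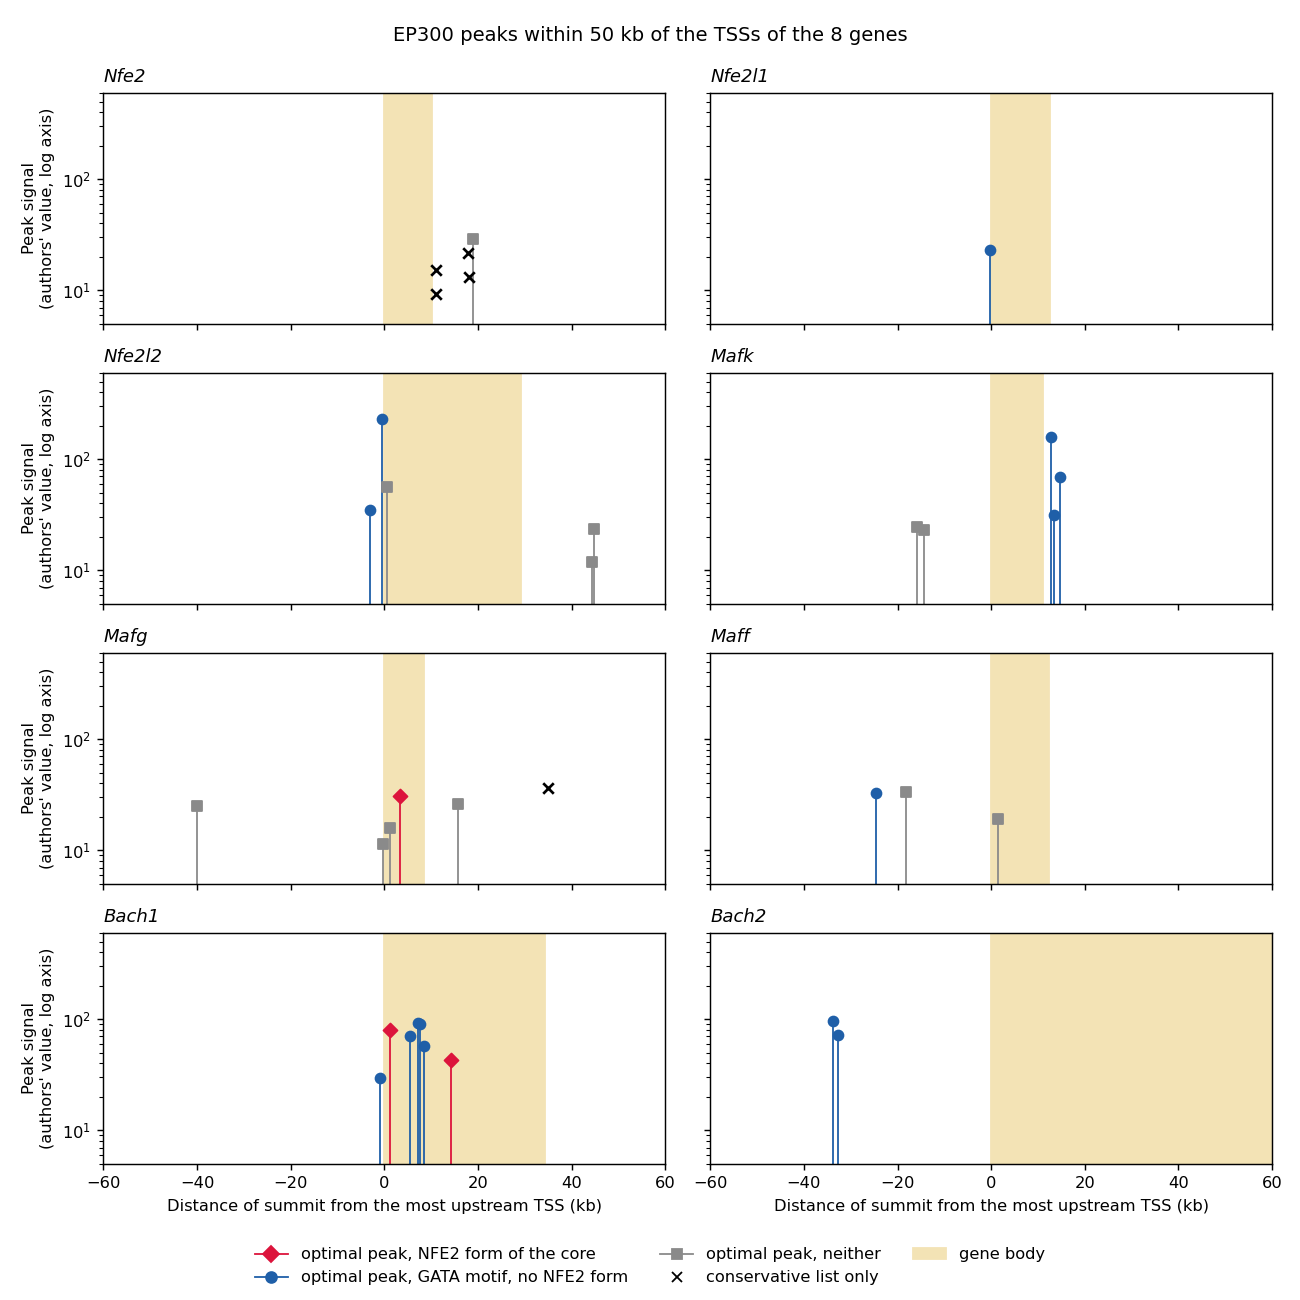
Signal (authors' value, log axis) of each optimal peak against the distance of its summit from the most upstream TSS in the direction of transcription, with the gene body shaded; crosses are peaks of the conservative list only, of which 2 near Bach2 lie to the right of the axis. Bach1 carries 7 peaks over the start and first part of the gene, the strongest peak stands at the Nfe2l2 start, and Nfe2 has no optimal peak at its own start.

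The strongest peaks of the 8 genes covered much of the range over genes. Nfe2l2 had the highest, 232, which was at or above that of 86.9% of genes with a peak. Mafk followed with 159 (75.5%), then Bach2 with 97.3 (59.9%) and Bach1 with 92.6 (58.2%). Maff had 33.7 (22.8%), Mafg 30.9 (19.9%), Nfe2 29.2 (18.2%) and Nfe2l1 23.0 (10.4%). Within 50 kb the order thus falls into an upper 4 and a lower 4, with no value between 33.7 and 92.6. It depended on the window and on the assignment of peaks. The strongest peaks of Mafk, Nfe2 and Maff had another gene's TSS nearest. By nearest protein-coding TSS, Mafk and Nfe2 had no peak and Maff had one of 19.3. Within 100 kb the strongest signal was 352 for Nfe2l1 and 300.04 for Mafk, both with another gene's TSS nearest. The libraries did not settle the order of all neighbours. Nfe2l2 stood above Mafk, and Mafk above both BACH genes, in each library. The strongest Bach1 peak gave 36.5 and 54.9 in replicates 1 and 2, and the strongest Bach2 peak 42.1 and 54.8, so this pair did not differ beyond the spread. Among the lower 4, the same peaks gave 9.87 and 25.2 in replicates 1 and 2 for Maff, 22.7 and 4.96 for Mafg, 15.3 and 19.6 for Nfe2, and 11.0 and 8.99 for Nfe2l1, with a different order in each library. Over the 29 peaks the median signal was 32.7, against 38.6 for the other 17014 optimal peaks, and 12 of the 29 lay above the median of all peaks. The direction depended on which peaks were counted. The 17 peaks whose nearest protein-coding TSS was that of one of the 8 genes had a median of 56.5. Their median percentile was 64.7, and that of all peaks within 100 kb was 64.4, against 42.4 for the 29.

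**Figure D2:**
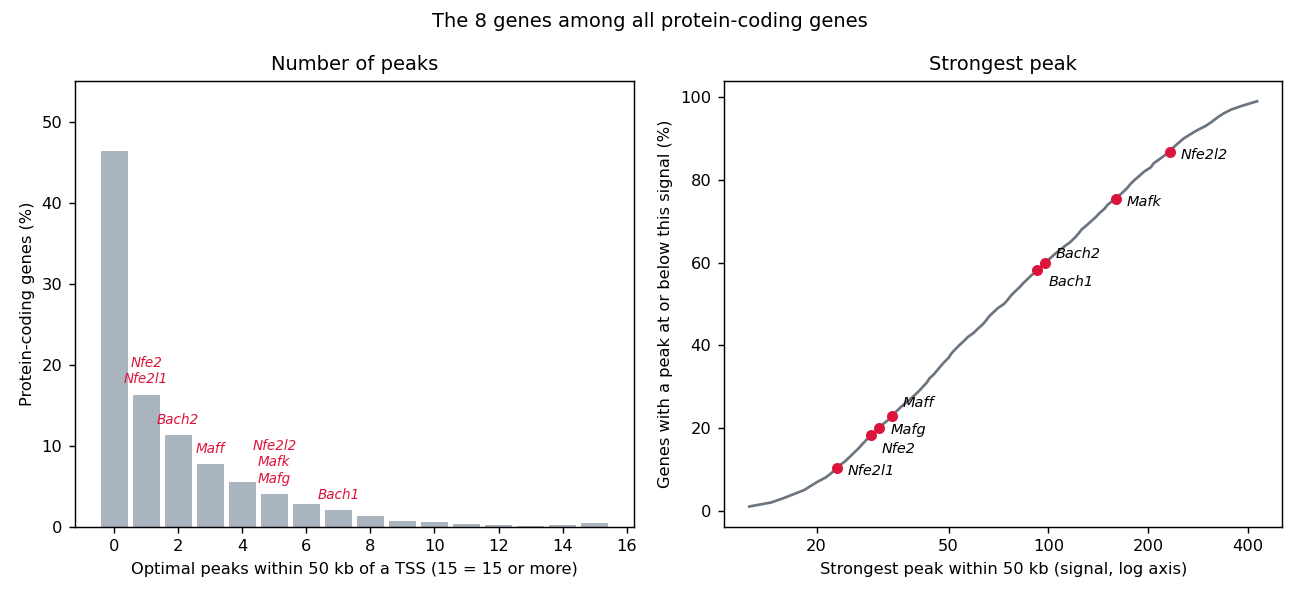
Left, the share of protein-coding genes with each number of optimal peaks within 50 kb, with the 8 genes named above their bar; right, the signal of the strongest such peak against the percent of the 11680 genes with a peak at or below it. Bach1, Nfe2l2, Mafk and Mafg stand at 5 peaks or more, while the strongest peak of Mafg lies among the lower 4 values.

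Among the CNC genes, EP300 was found most at Nfe2l2 within the 50 kb window. Its gene lies on chromosome 2 from 75675513 to 75704641 on the minus strand and encodes NRF2, the activator of antioxidant genes that KEAP1 keeps at low levels. The strongest peak had its summit 488 bp upstream of the nearest Nfe2l2 TSS. It also lay 359 bp from the TSS of the noncoding gene E030042O20Rik, inside that gene. Its signal was 105 in replicate 1, where it ranked 1148, and 125 in replicate 2, where it ranked 862. Both libraries placed it among the upper peaks, and the summits lay 0 and 5 bp from the optimal one. The window held 1 GATA motif.

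A second peak, inside Nfe2l2 and 438 bp downstream of its TSS, had a signal of 56.5. Replicate 1 gave 21.6 and replicate 2 gave 32.5. It had no GATA motif, but an ETS site (CCGGAA) and the core of an antioxidant response element (ARE, TGACNNNGC), the element through which NRF2 acts. Another, 2991 bp upstream of the TSS, had a signal of 34.7 and a GATA motif. The remaining 2 lay within 1 kb of a TSS of Hnrnpa3, an RNA-binding protein gene, more than 44 kb from Nfe2l2, with signals of 23.4 and 12.0. The first of these had no replicate 2 summit within 100 bp.

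Nfe2l1 and Nfe2 had less. Nfe2l1, on chromosome 11 from 96817414 to 96829968, encodes NRF1, known for induction of proteasome genes. Its only peak lay 356 bp upstream of a TSS, with a signal of 23.0, 11.0 in replicate 1 and 8.99 in replicate 2. Those ranked 14618 and 19791, so both libraries placed it low, and it held 1 GATA motif. Nfe2, on chromosome 15 from 103248212 to 103258403, encodes the haematopoietic CNC subunit of NFE2, which platelet formation requires. The only optimal peak in its window lay 12113 bp from the nearest Nfe2 TSS and 464 bp from a TSS of Cbx5, a heterochromatin protein gene. That peak gave 15.3 in replicate 1 and 19.6 in replicate 2 and had no GATA motif.

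The count at Nfe2 also depended on the list. The conservative list, which is not a subset of the optimal one, held 5 peaks in the Nfe2 window, 4 of them absent from the optimal list. Of those 4, 2 lay at the Hnrnpa1 promoter, with pooled signals of 21.7 and 13.1. The other 2 lay downstream of the 3′ end of Nfe2, 4209 and 4009 bp from the nearest TSS, with signals of 15.2 and 9.19. Each of the 4 had a summit within 100 bp in 1 library at most. Cut to the length of the optimal list, the pooled list gave 5 peaks, replicate 2 alone 3 and replicate 1 alone 6. No optimal or conservative peak lay within 1 kb of a TSS of Nfe2.

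The small MAF genes had 13 peaks, of which 9 had the TSS of another protein-coding gene nearest. Mafk, on chromosome 5 from 139791513 to 139802653, encodes a small MAF partner of NFE2 in erythroid cells. It had no peak within 5 kb of a TSS. A group of 3 peaks lay just downstream of its 3′ end, in Tmem184a, over 1745 bp between the outer summits. The strongest, from 139804300 to 139804463, had a signal of 159, with 81.9 in replicate 1 and 81.1 in replicate 2, ranks 1748 and 1910. The other 2 had signals of 31.4 and 68.6. All 3 were found in both libraries, and all 3 held GATA motifs. A Tmem184a TSS, 1846 to 3591 bp away, was the nearest protein-coding one to all 3. The nearest Mafk TSS lay 6875 to 8620 bp away.

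The strongest of the 3 held 3 GATA motifs, and 2 of the 3 peaks held an E-box and GATA composite (CTG, then 7 or 8 bases, then a GATA motif), the arrangement bound by complexes of TAL1 and GATA1. Upstream of Mafk, 2 weaker peaks (24.6 and 23.0) lay 58 and 1445 bp from a TSS of Ints1, an Integrator subunit gene, and held no GATA motif. These 2 ranked 8792 and 11158 in replicate 1 but 34293 and 41738 in replicate 2. Just outside the 50 kb window stood 2 stronger peaks near Micall2, at 52809 and 57308 bp from the Mafk TSS, with signals of 300.04 and 242. Just inside the limit, the farthest peaks of any member were those at 44719 and 44188 bp from Nfe2l2, and the first one outside its window was at 51066 bp, with a signal of 23.5.

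Mafg, on chromosome 11 from 120625117 to 120633600 on the minus strand, encodes a broadly expressed small MAF. Of its 5 peaks, 3 had a Mafg TSS as the nearest protein-coding one, 1 lay at the promoter of Pcyt2 and 1 at that of Aspscr1. None held a GATA motif, against 74.7% of all optimal peaks. All but the one 1194 bp into the gene were promoter peaks, and 42.1% of the other promoter peaks held the motif. The strongest Mafg peak, 26 bp from an internal Mafg TSS, held the NFE2 form. Its signal was 30.9, but the libraries differed. Replicate 1 gave 22.7, rank 7408, while replicate 2 gave 4.96, rank 103199.

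Of the other Mafg peaks, the one at Aspscr1 was alike in both libraries, with ranks 11170 and 16550 in replicates 1 and 2, and the other 3 were not. The peak at Pcyt2 ranked 179698 in replicate 1 and 9893 in replicate 2. The peak 1194 bp into the gene had no replicate 2 summit within 100 bp. The one 273 bp upstream of the first TSS, with the lowest signal of the 29 (11.5), had no summit of either library within 100 bp. Maff, on chromosome 15 from 79346621 to 79359076, encodes the remaining small MAF. It had a peak 75 bp from one of its TSSs, with a signal of 19.3, which was found in replicate 2 (17.1) and not in replicate 1. Its other 2 peaks lay in or at the start of Pla2g6, a phospholipase gene, with signals of 32.7 and 33.7. The one inside Pla2g6 held 3 GATA motifs.

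The BACH genes carried 9 peaks, 7 of them at Bach1, with a median signal of 72.3. All 9 were found in both libraries, against 84.3% of all optimal peaks. However, 6 of the 7 Bach1 peaks and both Bach2 peaks lay above the median signal. Of the other optimal peaks above it, 98.7% were found in both. The CNC genes had a median of 29.2 over 7 peaks and the small MAF genes one of 26.3 over 13. Those 2 sets held all 7 peaks at neighbours' promoters, whose median was 24.9, so gene family and position were not separated. Bach1, on chromosome 16 from 87698945 to 87733346, encodes the heme-sensing repressor of globin and heme oxygenase genes. Its 7 peaks spanned 15111 bp between the outer summits, and a Bach1 TSS was nearest to every one. No other protein-coding gene had a TSS in the window. One peak lay 877 bp upstream of the first TSS and 6 lay in the gene, from 1109 to 14175 bp downstream.

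Peaks 4 and 5 of Bach1 were its strongest. Peak 4 had a signal of 92.6, with 36.5 in replicate 1 and 54.9 in replicate 2. Peak 5 had 90.9, with 57.8 in replicate 1 and 36.9 in replicate 2. The 2 libraries thus ordered the pair in opposite ways. Peak 4 held 2 GATA motifs and peak 5 held 3, the nearest 8.5 bp from the summit. Peak 3 (71.0) and peak 6 (57.2) also held GATA motifs, and the promoter peak (29.8) held 1 near the edge of the window, 87.5 bp from the summit.

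The 2 Bach1 peaks without a GATA motif were the 2 with the NFE2 form. Peak 2, 1109 bp downstream of the nearest TSS and from 87699943 to 87700282, had a signal of 79.9, with 40.4 in replicate 1 and 37.1 in replicate 2. Its NFE2 form was centred 6.5 bp from the summit. Peak 7, 14175 bp downstream and from 87713009 to 87713348, had a signal of 42.7, with 18.9 in replicate 1 and 23.2 in replicate 2. Here the centre of the motif lay 8.5 bp from the summit. At Mafg the distance was 37.5 bp. In both Bach1 peaks, then, the 2 libraries gave like signals and the element lay close to the summit.

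Bach2, on chromosome 4 from 32238804 to 32586108, encodes a repressor best known from B and T lymphocytes. Its gene is 347305 bp long, with 7 annotated TSSs over 336127 bp. No optimal peak lay within 20 kb of any of those starts. The 2 optimal peaks lay in intergenic sequence 33745 and 32764 bp upstream of the first TSS, 981 bp from each other. The nearest TSS of any gene, not a protein-coding one, was only 2089 and 1108 bp from their summits. The first peak had a signal of 97.3, with 42.1 in replicate 1 and 54.8 in replicate 2. The second had 72.3, with 31.5 and 37.8 in replicates 1 and 2. Both libraries placed the pair among their first 5399 peaks. Each peak held 2 GATA motifs, and the second held the E-box and GATA composite. The next peak upstream lay 60704 bp from the TSS, with a signal of 123, and 7 peaks lay within 100 kb. Casp8ap2 and Gja10 also have a TSS within 50 kb of one of Bach2, but a Bach2 TSS was the nearest protein-coding one to both optimal peaks.

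Across the 29 peaks, 25 (86.2%, 95% Wilson interval 69.4 to 94.5) had a summit of both libraries within 100 bp, against 84.3% of all optimal peaks. All 12 peaks above the median signal did, against 98.7% of the other optimal peaks above it. At or below it 13 of the 17 did (76.5%), against 69.8% of the others. The conservative list held 20 of the 29 (69.0%), against 78.4% of all. Of the 25 found in both libraries, 19 had ranks within 2-fold of each other (76%, against 82.8% of the 14335 other such peaks). The 6 that did not had optimal signals of at most 33.7 and lay near Nfe2l2, Mafk, Mafg and Maff, with none at Bach1 or Bach2. Intervals on shares cover counting error only.

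**Figure D3:**
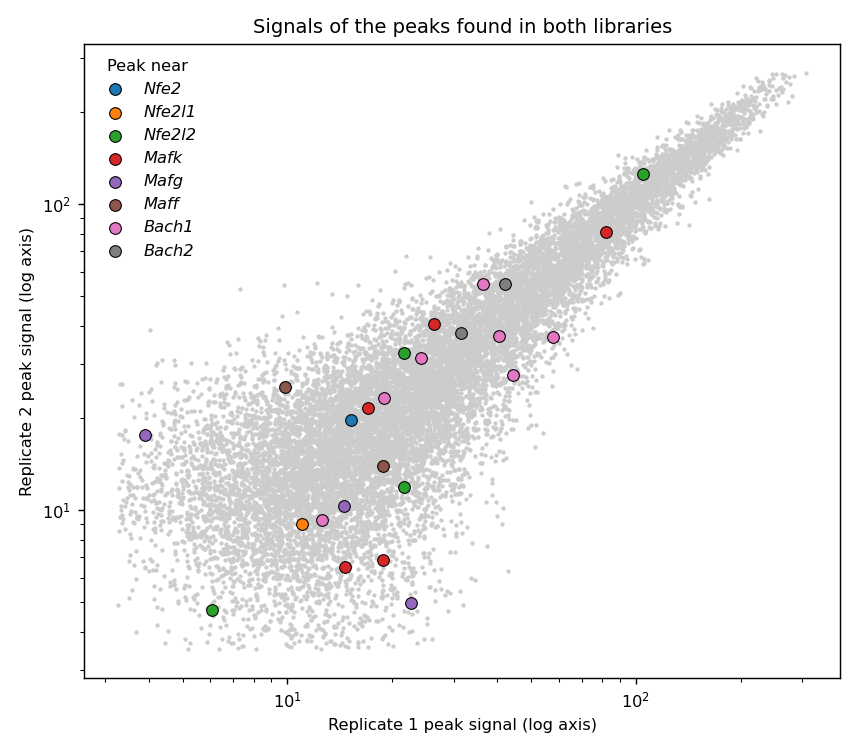
Signal of each peak in replicate 1 against replicate 2 (log axes), for the 25 peaks near the 8 genes with a summit of both libraries within 100 bp (coloured by gene) and for the other 14335 such optimal peaks (grey). The peaks at Nfe2l2 and Mafk with the highest signals lie in the narrow upper part of the cloud, and 2 Mafg peaks lie at its edges.

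Position was partly fixed by the choice of peaks, since every peak had to lie within 50 kb of a TSS, so the promoter share is a description. A summit lay within 1 kb of a TSS of any gene in 14 (48.3%, interval 31.4 to 65.6), against 26.2% of all optimal peaks. Of these 14, 7 were at a TSS of one of the 8 genes and 7 at that of a neighbour, from Cbx5 to Pla2g6. The own-promoter peaks 488 bp upstream of Nfe2l2 and 273 bp upstream of Mafg lay nearer a TSS of another gene, not protein-coding, at 359 and 105 bp. Distal peaks were those more than 1 kb from any TSS, and with a limit of 2.5 kb the promoter share was 72.4%. The 15 distal peaks had a median signal of 68.6, those at the genes' own promoters 29.8 and those at neighbours' promoters 24.9. The own-promoter group nevertheless held the strongest of all, at Nfe2l2. Another optimal summit lay within 12.5 kb of 25 of the 29 (86.2%, against 63.8%), and 7 of these 25 were the Bach1 peaks. None was mostly repeat-masked, as 4.14% of all were.

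The GATA motif followed the same division. It was present in 14 of the 29 windows (48.3%, interval 31.4 to 65.6), against 74.7% of all optimal peaks. Among distal peaks it was found in 11 of 15 (73.3%), against 86.3% of the other distal peaks. At promoters it was found in 3 of 14 (21.4%), against 42.1% of the other promoter peaks. The 3 were the genes' own promoters at Nfe2l1, Nfe2l2 and Bach1, and none of the 7 neighbours' promoters had the motif. Of the distal peaks, 4 lacked it: the 2 Bach1 peaks with the NFE2 form, the peak inside Mafg and that upstream of Mafk. The E-box and GATA composite occurred in 4 peaks, at Mafk, Bach1 and Bach2 (13.8%, against 22.4% of all).

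The NFE2 form occurred in 3 of the 29 peaks (10.3%, interval 3.58 to 26.4), against 1.78% of all optimal peaks, in which it was found 303 times. The core without regard to the arm was in the same 3, against 5.91% of all. All 3 were at Bach1 or Mafg. The count is small and 2 of the 3 share a gene, and no match was found in the windows at Nfe2, Nfe2l1, Nfe2l2, Mafk, Maff or Bach2. The ARE core was in 4 peaks (13.8%, against 10.3% of all), of which 2, the first Bach1 and the Mafg sequence shown, overlap the NFE2 form there. An ETS site was in 5 of the 29 (17.2%, against 5.87% of all). All 5 were among the 14 promoter peaks (35.7%, against 15.5% of the other promoter peaks), and none was among the 15 distal peaks. Of the 5, 3 were at neighbours' promoters and 2 at the genes' own. A CACCC box, the site of Krüppel-like factors searched as CCACCC, was in 7 of the 29 (24.1%, against 20% of all), and CCAAT in 8 (27.6%, against 21.6%). An E-box (CAGATG or CAGCTG, and also CAGGTG) was in 10 (34.5%, against 39.2%). A match is a description of the letters in the window and does not show that a factor was bound.

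**Figure D4:**
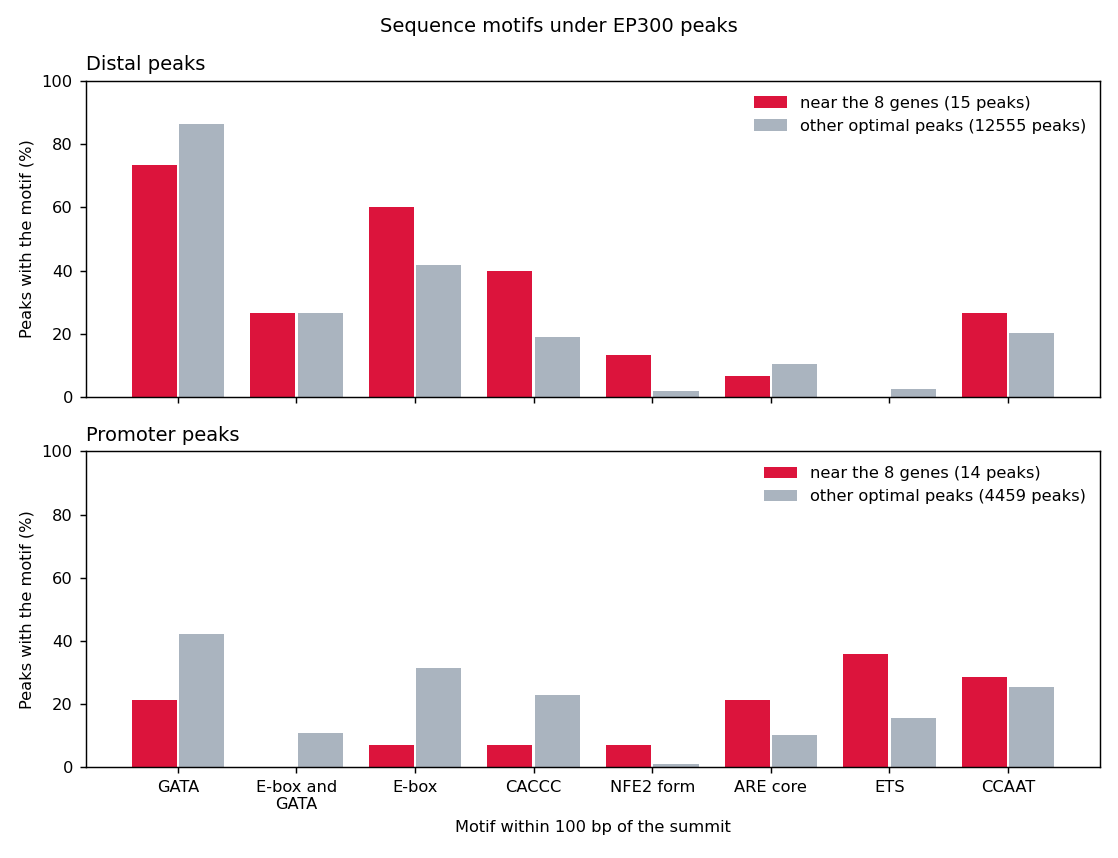
Share of peaks (%) with each motif within 100 bp of the summit, for distal peaks (top) and promoter peaks (bottom), with peaks near the 8 genes in red and other optimal peaks in grey. The GATA motif is in 73.3% of the distal peaks near the 8 genes, against 86.3% of other distal peaks. Among peaks near the 8 genes the ETS site is in promoter peaks alone, 3 at neighbours' promoters and 2 at the genes' own.

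Genes that work with these factors also had EP300 peaks in their windows, by lists of known relatives, regulators and targets. Among relatives and regulators, the strongest peak within 50 kb often had another gene's TSS nearest. Of 13 relatives (large MAF, AP-1 and other CNC genes), 9 had a peak within 50 kb, against 53.7% of all protein-coding genes. Within 1 kb of a TSS 4 had one, against 15.5%. The median strongest signal within 50 kb was 31.8. The highest were near Nrl (242) and Junb (216), at the promoters of Dcaf11 and Prdx2, and Batf and Fosl2 had none. Of 11 genes that control NRF1 and NRF2, 10 had one within 50 kb, with a median of 106, and 4 had one within 1 kb of a TSS. Btrc, of the ubiquitin ligase that marks NRF2, had a promoter peak of 385, and Ddi2, the protease that cleaves NRF1, had one of 273 near Agmat, while Gsk3b had none.

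Of 16 target genes of NRF2 and BACH1, 14 had a peak within 50 kb (53.7% of all genes), with a median of 82.8, and 10 had one within 1 kb of a TSS (15.5% of all genes). The ferritin heavy chain gene Fth1 (207) and the iron exporter gene Slc40a1 (198) had the highest, both at promoters, and Abcc1 and Me1 had none. Hmox1, the heme oxygenase gene and the classic BACH1 target, was singled out after its values were seen. It had 3 peaks, 2 of them with the NFE2 or AP-1 core, and the strongest (119) lay 9644 bp from its TSS. All 7 target genes of NFE2 had a peak, with a median of 392, and 5 had one within 1 kb of a TSS. The highest were in the windows of Hba-a1 (544, in an intron of Nprl3) and Hbb-bs (525, in intergenic sequence 49205 bp from a TSS). The median strongest signal over all genes with a peak was 73.5. These lists were chosen with earlier results of these data known.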

How the data were processed

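Narrow-peak lists of 2 EP300 ChIP-seq libraries on mm10 were taken as deposited. Each library's list and the pooled list hold 300000 peaks. By the deposited file listings, a library's peaks were called from its alignments and a control, and the IDR lists derive from the library and pooled lists. The aligner, the caller and their cutoffs were not given in the sources used here. The signal of a peak is the caller's value as deposited, on a scale of its own in each list. The IDR score, also as deposited, ends at 1000 and was not used. Depth is unknown because the lists hold no read totals.

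Summits were set on GENCODE vM21 TSSs and the GRCm38 sequence; coordinates are counted from 1. Library values are those of the strongest summit within 100 bp. A peak was placed at a promoter when within 1 kb of any TSS, and otherwise in a coding exon, other exon, intron or intergenic sequence. Motifs were searched within 100 bp of the summit on both strands. The sequence under 1 further strong peak is not reported here. Look-ups were tested on simulated data. Python 3.11.15, numpy 2.4.6, pandas 2.3.3, scipy 1.17.1 and pysam 0.24.0 were used.

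Peaks on the 19 autosomes and X were used, and 12 elsewhere were left out. The members, lists and motifs were chosen with earlier results of these data known. The text names the strongest peak of each gene, every peak in the top 25% of optimal signals, and for each gene list the 2 highest genes and the first 2 by alphabet that had no peak. Alternatives were other lists, each library alone, windows of 20 and 100 kb, protein-coding transcripts, nearest-gene assignment, and other matching, promoter and motif windows.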

Additional observations from a re-analysis of the deposited data

How the results depend on the processing

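In place of 29 peaks, the conservative list gave 27, of which 20 were among the 29, and the top of the pooled list gave 31. There were 23 within 20 kb and 42 within 100 kb. Single libraries gave from 30 (without replicate 1) to 37 (without replicate 2). With optimal peaks above the median signal the values moved to 12 peaks at 4 genes, a median percentile of 73.4 in place of 42.4, 100% found in both libraries, 16.7% at promoters and 75% with a GATA motif; fewer and stronger peaks enter by construction. With only peaks whose nearest protein-coding TSS belonged to one of the 8 genes, 17 peaks were left, at 6 genes, with a median percentile of 64.7; with the 100 kb window it was 64.4. The share found in both libraries was 44.8% with summits within 25 bp and 96.6% with any overlap, and the promoter share was 72.4% with a window of 2.5 kb. With single libraries, 70% to 73.0% were found in both, 43.2% to 46.7% lay at promoters, 46.7% to 48.6% held a GATA motif and 6.67% to 8.11% a core. Without replicate 1 no peak was found near Nfe2l1. Another 61 values stayed within 1.5 times for counts or within the 95% interval for shares and the median. For single genes, with strongest percentiles judged by the SD of the 2 libraries, 93 values stayed and 43 moved. No paired analysis was possible because there is 1 group. Read depth is unknown, so a missing peak may lie below what these libraries could detect.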

Other observations

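Several stronger peaks stood between 50 and 100 kb from the genes. Near Nfe2l1 there were 4, all from 86724 bp on, and the strongest, with a signal of 352, had Cdk5rap3 as the nearest protein-coding gene and held a GATA motif. Bach2 had 4 upstream peaks from 60704 to 68092 bp, with signals from 55.7 to 123, of which 2 held a GATA motif. A further Bach2 peak lay inside the gene, 79599 bp from the nearest TSS, with a signal of 56.3. Nfe2l2 had 2, that at 51066 bp given above and one at 63752 bp with a signal of 72.8, and Mafk the 2 near Micall2. None of the 13 peaks in this range held the NFE2 form.

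Weaker entries of the pooled list also lay within 5 kb of starts without an optimal peak. The highest within 5 kb of a Mafk TSS was 781 bp away, with a signal of 15.1 and pooled rank 19219, and ranked 29115 in replicate 2. Near Bach2 the highest within 5 kb was 3602 bp from a TSS, with a signal of 8.90 and pooled rank 48755.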
